A study of Mus musculus with 6 samples.

Results

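Ppara, Acaa2, Apoe and Pex11a are genes of lipid oxidation and transport measured on a two-colour array of mouse sperm RNA, and they were taken by probe name and transcript accession, 4 of the 45 genes with a known symbol. The probes were A_51_P348334 for Ppara (NM_011144), A_51_P125260 for Acaa2 (NM_177470), A_51_P171999 for Apoe (NM_009696) and A_51_P456957 for Pex11a (NM_011068), each printed as 10 spots on every array. RefSeq lists 2 curated coding transcripts for Ppara, 4 for Apoe and 1 each for Acaa2 and Pex11a, plus 1 noncoding Pex11a transcript, and a single probe per gene was not used to separate them.

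Male C57BL/6 mice drank control water or water with 100 mg/L cadmium chloride (CdCl2) from 5 weeks of age for 10 weeks, and sperm were taken at 15 weeks. Each group had 3 samples, described in the labels as biological replicates, with the number of mice in a sample not stated. Every sample was split into an immunoprecipitated (IP) fraction labelled with Cy5 and a supernatant fraction labelled with Cy3, and both were hybridised to 1 array. What the immunoprecipitation was directed against is not stated in the labels. IP RNA carried Cy5 on every array, so a ratio holds the fraction and the dye together and they cannot be told apart.

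PPARA is a nuclear receptor that binds fatty acids and switches on genes of fatty acid breakdown. Among the genes that it can induce are enzymes that carry fatty acids into mitochondria and cut them there, and Pex11a, whose protein promotes the division of peroxisomes. ACAA2 is the mitochondrial thiolase of the last step of beta-oxidation, and APOE carries lipids between cells. Mature sperm transcribe little, and much of their RNA is left from earlier stages of germ cell development.

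Detection differed between the arrays. The share of all probes well above background in the supernatant was 35.1% to 44.0% on the control arrays and 45.6% to 49.8% on the Cd arrays. In the IP channel it was 28.2% to 44.8% and 43.7% to 49.3%. Control replicate 1 was lowest in both channels. The choice of it and Cd replicate 3 as doubted arrays, left out together below, came from earlier work on these data and not from a label. In the supernatant Cd replicate 3, at 47.4%, lay between the other Cd arrays. In the IP channel, at 43.7%, it was the lowest of the Cd arrays. For Gapdh, a control transcript with probes near either end, the 5′ probes minus the 3′ probes in log2 gave -1.48 to -1.38 in control IP and -1.91 to -1.82 in Cd IP (exact permutation p = 0.1, two-sided, the smallest that 3 arrays against 3 allow). In the supernatant it was -0.55 to -0.15 and -0.80 to -0.57. The control arrays were scanned together and the Cd arrays together, which means that treatment and scan cannot be told apart. Of 18 sperm markers 3 had a named probe. Cep41 was well above background in both channels on all 6 arrays and Hyal3 in the IP channel on all 6, while Spats1 was so on 0 arrays. Markers of Sertoli, Leydig, epididymal, white blood, liver and red blood cells had no named probe, so these cells could not be checked. In bulk RNA, fewer cells of a type and less RNA per cell cannot be told apart.

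All 4 genes gave more IP than supernatant signal relative to the median of the array, in control and in Cd sperm, and no difference between the groups passed the limma test. The log2 IP over supernatant ratio, relative to the median of the array, was above 0 for each gene on each of the 6 arrays. Of all 23788 probes tested for the ratio, which exclude Ppara, 48.5% had a control mean above 0. The share of probes above 0 on each of the 6 arrays was not counted. For each gene the ratio, the summed RNA level and the signal of each fraction were compared, which gave 14 tests, since the supernatant signal of Ppara was too dim for the ratio and the supernatant. Of these, 0 passed a Benjamini-Hochberg adjusted p of 0.05 by limma and 0 had an unadjusted p under 0.05. Over all probes limma called 0.00420% for the ratio (1 probe), 0% for the level, 0% for the IP signal and 0% for the supernatant signal at the adjusted threshold, and 5.02%, 10.3%, 8.00% and 9.56% had an unadjusted p under 0.05. The smallest unadjusted p was 0.0757 and the adjusted p ran from 0.508 to 0.997. The 95% intervals of the 14 differences, Cd over control, all lay between 0.511-fold and 2.01-fold. In 4 of the 14 the Cd and control values did not overlap: the level and IP signal of Ppara and the ratio and supernatant signal of Acaa2. These pairs share signals and are not independent. Without control replicate 1 and Cd replicate 3 the differences were -0.41 for the level and -0.45 for the IP signal of Ppara, and 0.41 for the ratio and -0.32 for the supernatant signal of Acaa2, against -0.38, -0.42, 0.43 and -0.40 with all arrays. Among all probes the Cd values lay wholly above or below the control values for 10.0% in the ratio (4.90% above, 5.15% below), 19.5% in the level (10.6% and 8.87%), 16.3% in the IP signal (7.65% and 8.63%) and 18.2% in the supernatant (11.5% and 6.65%).

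**Figure D1:**
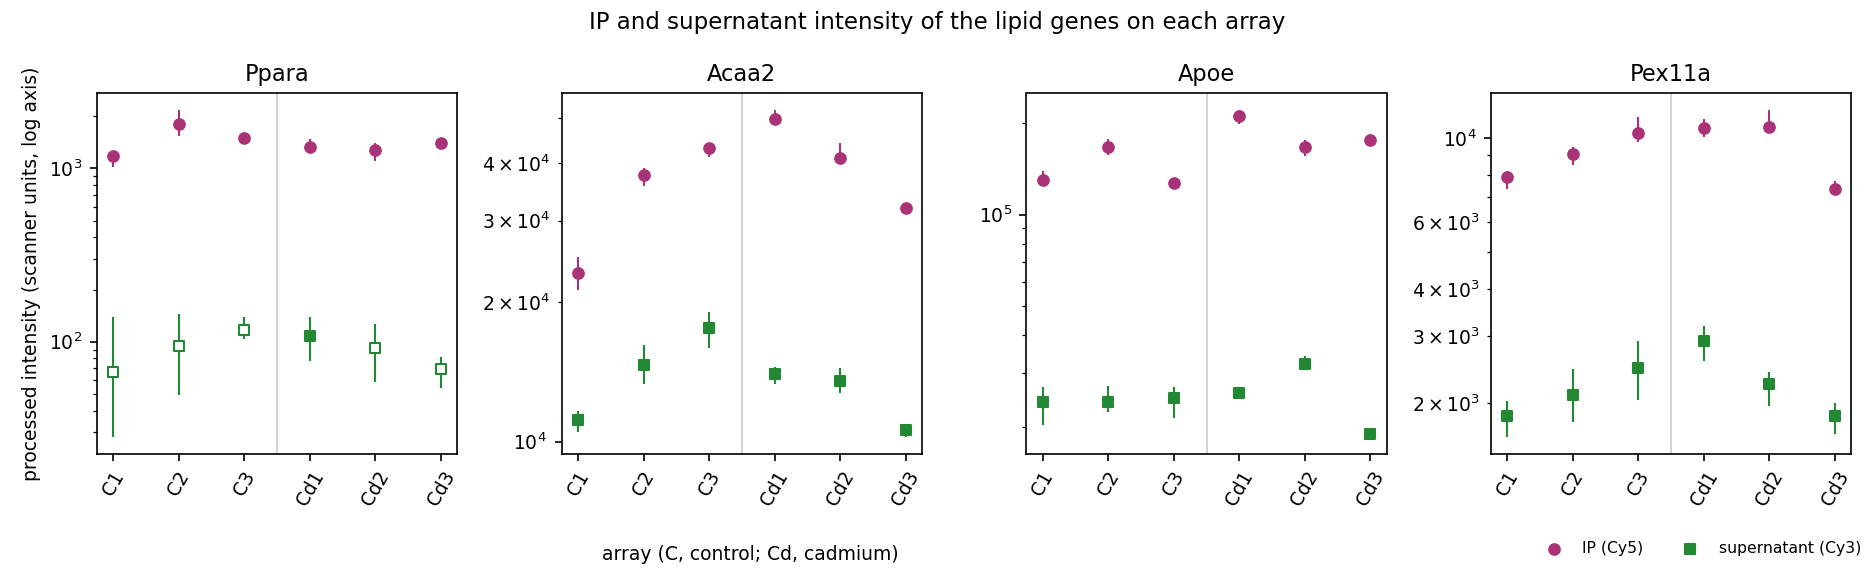
Processed intensity of Ppara, Acaa2, Apoe and Pex11a on each of the 6 arrays (scanner units, log axis, a separate scale for each gene), with the IP channel as circles and the supernatant as squares. Points are means over the spots on the log scale and bars run from the lowest to the highest spot, and open squares mark Ppara supernatant signals that were not well above background, on 5 of the 6 arrays. The IP signal lies above the supernatant signal for every gene on every array.

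Ppara, the receptor, was clear in the IP fraction and close to background in the supernatant. Its IP intensity was 1179, 1812 and 1506 in control and 1334, 1274 and 1394 in Cd, well above background on every array. Its supernatant intensity was 67.0, 94.3 and 116 in control and 107, 92.2 and 69.5 in Cd. It was well above background there on 0 control arrays and on Cd replicate 1 alone, where 7 of 10 spots were. The unprocessed supernatant spots read 24.4 to 32.9 scanner units over a local background of 11.7 to 15.1.

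The log2 ratio of Ppara computed from these signals was 4.11, 4.29 and 3.68 in control and 3.64, 3.83 and 4.25 in Cd. Because the supernatant signal is near background, it was raised, where lower, to the dimmest supernatant signal of any probe well above background on that array. IP was then 11.2-fold over supernatant in control and 12.7-fold in Cd. These values come from channel means after loess and between-array quantile scaling of the average intensity, and are open to dye bias. They are not strict lower limits, since a signal not well above background can exceed that floor. They hold for that processing alone, since the control log2 ratio was 3.18 with spike-in scaling and 1.23 with normexp background correction, both lower. The Ppara ratio and supernatant signal were not fitted with limma.

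The RNA level, log2 of the 2 summed channels relative to the 75th percentile of the array, was 0.93, 0.96 and 0.65 for Ppara in control and 0.42, 0.37 and 0.60 in Cd. All 3 Cd values lay below all 3 control values, as they did for 8.87% of the 30518 probes tested. The difference was -0.38 (SE 0.19, 95% interval from -0.82 to 0.05, limma adjusted p = 0.508), and 26.7% of the probes differed by more. It was -0.10 with normexp, which here also took median spot signals, a linear dye factor and an offset of 50. The part of each in this smaller difference was not tested. The level rests on the IP channel. There the scaled log2 signal was 1.99, 2.01 and 1.66 in control and 1.42, 1.37 and 1.63 in Cd, a difference of -0.42 (SE 0.24, limma adjusted p = 0.671). The Cd values were again all lower, as for 8.63% of 27413 probes, though control replicate 3 at 1.66 and Cd replicate 3 at 1.63 almost met. With normexp the IP difference was -0.05. Before scaling to the array, the IP intensities of the groups overlapped.

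Of 3 neural markers, Mbp and Chgb had a named probe. Their levels were also lower on every Cd array than on every control array, as for 8.87% of the probes tested for the level. The level of Mbp, myelin basic protein, was -0.81 to 1.69 in control and -4.09 to -1.36 in Cd. That of Chgb, a secretory granule protein, was -1.53 to -0.51 in control and -3.63 to -1.83 in Cd. In the IP fraction Chgb stood well above background on 3 arrays of control sperm but 1 of Cd sperm, and Mbp on 3 and 2. Of the sperm markers, Spats1 was -4.21 to -2.96 in control and -4.84 to -4.36 in Cd. It was not well above background on any array, so its level says little. The groups overlapped for the other sperm markers with a named probe. Hyal3 was -0.97 to -0.69 in control and -1.46 to -0.93 in Cd, and Cep41 0.68 to 1.18 and 0.66 to 1.33. The part of the Mbp and Chgb transcripts, of the Gapdh 5′ to 3′ difference and of the scan in the Ppara values was not tested.

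Acaa2, the thiolase, had Cd and control values that did not overlap in the ratio and in the scaled supernatant signal, and that overlapped in the IP fraction. Its log2 ratio was 1.03, 1.38 and 1.28 in control and 1.84, 1.64 and 1.51 in Cd. Every Cd value lay above every control value, as for 4.90% of the 23788 probes. The mean was 1.23 ± 0.18 for the controls and 1.66 ± 0.17 for Cd (SD, n = 3 each). The difference was 0.43, or 1.35-fold, with a 95% interval from 0.92-fold to 1.99-fold (SE 0.25 in log2, limma adjusted p = 0.961). Among all probes tested, 23.5% differed by more, and limma called 0.00420% of them higher in Cd and 0% lower. The difference was 0.62 with spike-in scaling, which moved the median of all probes from 0.04 to 0.23.

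The scaled supernatant signal of Acaa2 was 5.14, 5.02 and 5.21 in control and 4.80, 4.79 and 4.56 in Cd. All 3 Cd values were lower, as for 6.65% of the 26878 probes tested there. The difference was -0.40 (SE 0.20, 95% interval from -0.86 to 0.05, limma adjusted p = 0.536). In the IP channel the signal was 6.29, 6.39 and 6.50 in control and 6.64, 6.38 and 6.15 in Cd. The groups overlapped there, with a difference of -0.0043 (SE 0.24). The ratio difference of Acaa2 thus came with a lower scaled supernatant signal and an IP signal that was nearly the same on average. With normexp the split was the other way, at 0.30 in the IP channel and -0.043 in the supernatant, and the ratio difference was 0.40. The unscaled supernatant intensities also overlapped, at 11131, 14647 and 17578 in control against 13971, 13552 and 10592 in Cd. The RNA level of Acaa2 differed by -0.091 (SE 0.19, limma adjusted p = 0.898), and by 0.18 with normexp.

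Pex11a, the peroxisome division factor, had the smallest spread of the ratio among the 4 genes in control sperm. Its log2 ratio was 2.06, 2.14 and 2.05 in control and 1.86, 2.29 and 1.92 in Cd. The control values spanned less than the Cd values, which lay on both sides of them. The SD was 0.048 in control and 0.23 in Cd, and with 3 arrays a group the 2 spreads were not tested against each other. The small control SD depended on the setting. It was 0.30 with normexp, against 0.31 for Ppara, and 0.17 with spike-in scaling. The ratio differed by -0.061 (SE 0.24, 95% interval from -0.62 to 0.49, limma adjusted p = 0.994). With normexp it was 0.18, with spike-in scaling 0.12 and without Cd replicate 1 0.019, so its direction depended on the processing.

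The IP intensity of Pex11a was 7890, 9097 and 10329 in control and 10599, 10699 and 7350 in Cd. Its supernatant intensity was 1852, 2094 and 2469 in control and 2920, 2248 and 1844 in Cd. Cd replicate 3 was the lowest of the 6 arrays in both channels. The RNA level was 3.89, 3.51 and 3.63 in control and 3.65, 3.61 and 3.25 in Cd, with a difference of -0.17 (SE 0.21, limma adjusted p = 0.799). Without Cd replicate 3 it was -0.045, without control replicate 1 it was -0.065, and without both it was 0.062. The scaled differences were -0.21 in the IP channel and -0.12 in the supernatant (limma adjusted p = 0.843 and 0.862), and 0.031 and 0.079 without both arrays.

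Apoe, the lipid carrier, was bright in both channels. Its IP intensity was 129545, 167352 and 127332 in control and 210738, 166435 and 176493 in Cd, with 0 saturated spots. Its supernatant intensity was 24206, 24139 and 24795 in control and 25860, 32303 and 18877 in Cd. Scaled to the array, the supernatant signal was 6.26, 5.74 and 5.70 in control and 5.69, 6.04 and 5.40 in Cd. The controls were close before scaling only, and after it the spread was alike, with an SD of 0.31 in control and 0.32 in Cd. The log2 ratio was 2.39, 2.81 and 2.35 in control and 3.03, 2.41 and 3.15 in Cd. Cd replicates 1 and 3 lay above all controls and Cd replicate 2 lay within their range.

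The Apoe ratio thus differed by 0.34 (SE 0.29, 95% interval from -0.32 to 1.01, limma adjusted p = 0.964). Cd replicate 2 held the mean down and the other two raised it: the difference was 0.57 without Cd replicate 2 and 0.20 without Cd replicate 3. It was 0.0047 with normexp. The RNA level of Apoe was 7.87, 7.60 and 7.20 in control and 7.78, 7.55 and 7.66 in Cd. The groups overlapped, with a difference of 0.11 (SE 0.22, limma adjusted p = 0.898) that became -0.073 without control replicate 3, the lowest control, and -0.11 with quantile normalization. The scaled IP and supernatant signals differed by 0.12 (SE 0.27) and -0.19 (SE 0.26). The supernatant difference was -0.010 without control replicate 1, -0.033 without Cd replicate 3, 0.15 without both and 0.29 with normexp. That of the IP signal was -0.080 without control replicate 3 and -0.19 with quantile normalization.

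**Figure D2:**
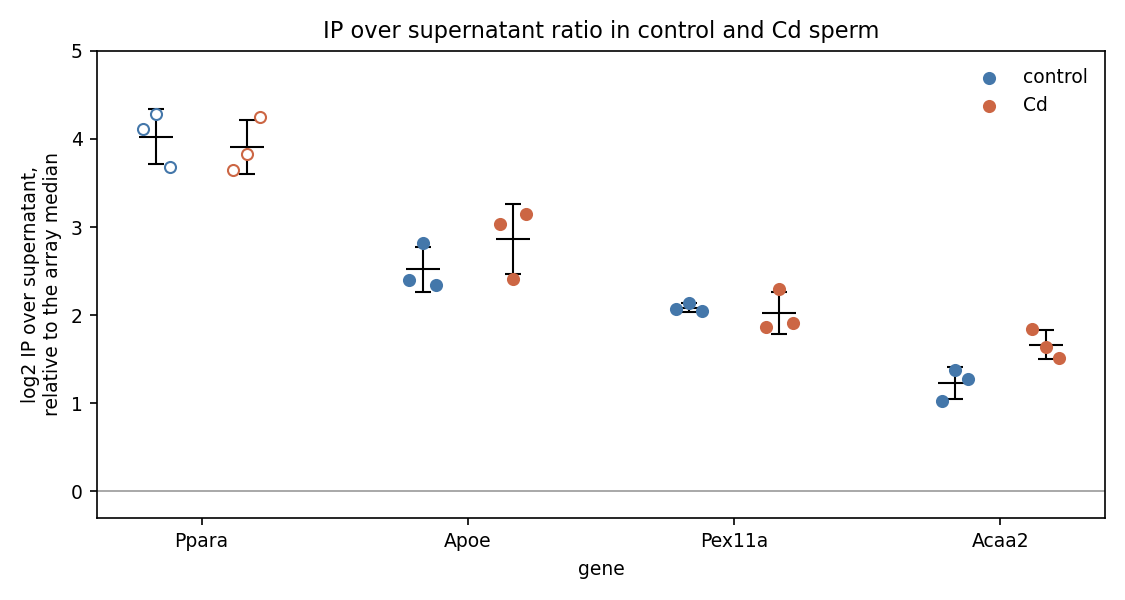
Log2 IP over supernatant ratio of each gene relative to the array median (0, grey line), with 1 point per array and the mean ± SD of 3 arrays in black. Every point lies above 0, the groups are separate only for Acaa2, and open points mark Ppara, whose supernatant signal was not well above background on 5 of 6 arrays.

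**Figure D3:**
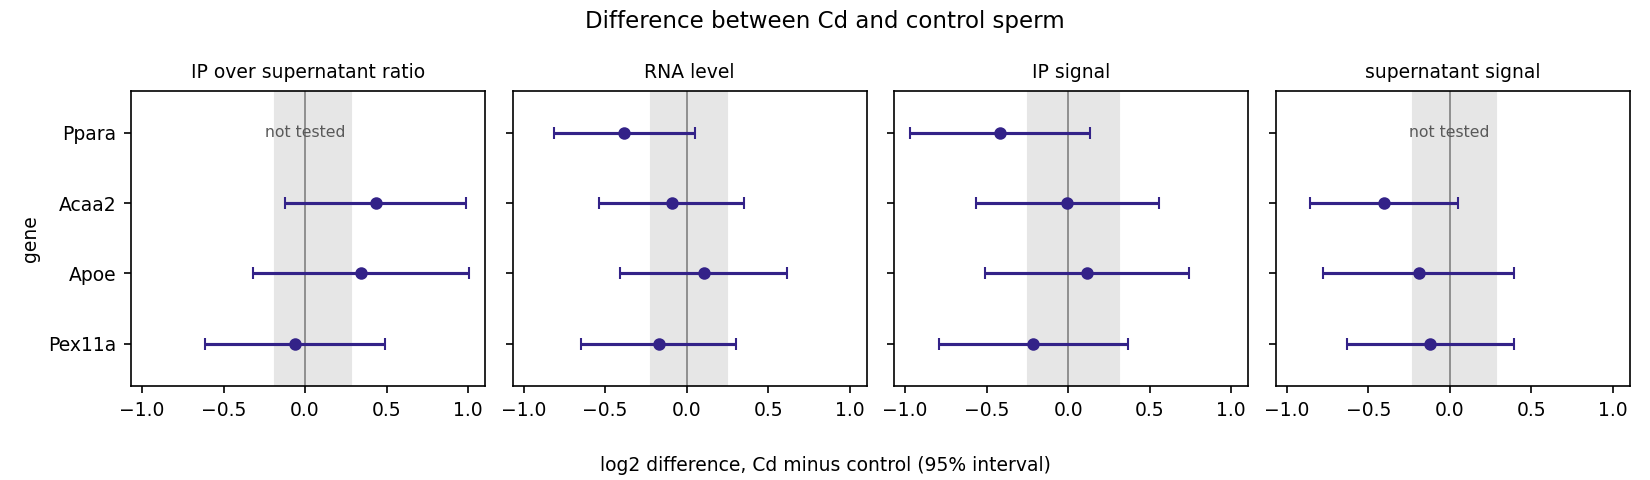
Log2 difference, Cd minus control, of each gene in the 4 measures, with the 95% interval of limma and, in grey, the range that holds the middle 50% of all probes tested. Every interval includes 0. Ppara was not tested in the ratio or the supernatant.

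As a description without a test, the order of the control ratios was Apoe (2.52 ± 0.26), Pex11a (2.09 ± 0.05) and Acaa2 (1.23 ± 0.18; SD, n = 3 each), with Ppara above them at 4.03 ± 0.31 on its dim supernatant signal. Among the 23788 probes tested, Apoe lay above 97.8%, Pex11a above 95.5% and Acaa2 above 85.7%. Among 27 genes with a symbol that were measured in both channels they ranked 3, 4 and 11, and 19 of the 27 lay above 0. Apoe exceeded Pex11a on 6 of 6 arrays, but by 0.11 on Cd replicate 2 against 1.23 on Cd replicate 3. Pex11a exceeded Acaa2 on 6 of 6 arrays, by 0.026 on Cd replicate 1 and by 1.03 on control replicate 1. These neighbours were therefore not well apart on every array. With normexp the control ratio of Ppara was 1.23, and it no longer led: Apoe was at 2.71, Pex11a at 1.57 and Acaa2 at 1.19. Normexp added an offset of 50 to both channels, more than the unprocessed Ppara supernatant spots, at 24.4 to 32.9. The setting also changed the background method, the spot signal and the dye correction. The part of each in the changed order was not tested. With spike-in scaling the values were 3.18 for Ppara, 1.67 for Apoe, 1.24 for Pex11a and 0.38 for Acaa2.

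The gap between 2 genes on the same array is free of the centring or 75th percentile taken for that array. Over 15 such gaps, in the ratio, the IP signal and the supernatant signal, the groups were separate for 2, 1 of 6 in the ratio, 1 of 6 in the IP signal and 0 of 3 in the supernatant. Over all pairs of genes with a symbol tested in the measure, the shares without overlap were 15.7%, 17.3% and 5.41%, so the count is near its background. The 3 ratio gaps with Ppara rest on its dim supernatant signal, and the groups overlapped in each. The Acaa2 ratio lay 1.03, 0.76 and 0.77 below that of Pex11a in control (gaps of -1.03, -0.76 and -0.77), and the gaps were -0.026, -0.65 and -0.41 in Cd. The IP signal of Ppara minus that of Apoe was -6.78, -6.53 and -6.40 in control and -7.30, -7.03 and -6.98 in Cd. Both had an exact permutation p of 0.1, two-sided, the smallest possible, and 0.5 when adjusted over the 15.

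The 10 spots of a probe show how much of the spread lies within an array. The SD of the log2 ratio over spots was 0.042 to 0.10 for Acaa2, 0.047 to 0.17 for Apoe and 0.087 to 0.18 for Pex11a. The standard error of an array's mean over spots was thus at most 0.036, 0.052 and 0.055. The SD between arrays was 0.18 in control and 0.17 in Cd for Acaa2, 0.26 and 0.40 for Apoe, and 0.048 and 0.23 for Pex11a. On the control arrays the standard error over spots of Pex11a was 0.041, 0.039 and 0.055, close to the SD between those arrays. The spots measure technical error within an array, whereas the arrays are separate samples. For Ppara the spot SD of the ratio reached 0.83 on control replicate 1, where the SD over spots was 0.77 in the supernatant and 0.095 in the IP channel. After removal of flagged spots 54 of 60 spots were used for Ppara, 55 for Acaa2, 52 for Apoe and 60 for Pex11a.

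Over the genes together, 2 ratios were higher in Cd and 1 was lower, with a median difference of 0.34 against 0.04 over all probes. The level was higher for 1 and lower for 3, with a median of -0.13 against -0.00082. The IP signal was higher for 1 and lower for 3, with a median of -0.11 against 0.03. The supernatant signal was lower for all 3 tested, with a median of -0.19 against 0.01. None of these differences passed the test, and the counts turned with the setting. With normexp the level and the IP signal were each higher for 3 and lower for 1, and the supernatant was higher for 2 and lower for 1. Without control replicate 1 and Cd replicate 3 the supernatant was also higher for 2 of 3, the IP signal for 3 of 4 and the level for 2 of 4.

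Lists of related genes gave 1 further gene. Of 23 PPARA targets and partners, 2 had a named probe, Ppara and Cpt1a, and of 17 mitochondrial oxidation, 23 peroxisome and 23 lipid transport genes 1 each, all described above. Of 11 cadmium response genes, metallothioneins included, 0 had one, so these genes could not be checked. None of the genes with a probe passed the test in either direction. Cpt1a, which loads fatty acids for entry into mitochondria, had an IP intensity of 1826, 6701 and 3900 in control and 3348, 4124 and 2406 in Cd. Its level was 1.88, 3.10 and 2.36 in control and 2.09, 2.44 and 1.63 in Cd, so the control arrays alone spanned the Cd values but for Cd replicate 3. The level differed by -0.39 (SE 0.35, limma adjusted p = 0.711). Its ratio was on the IP side too, at 1.68 ± 0.26 for the controls and 1.59 ± 0.31 for Cd (SD, n = 3 each), with a difference of -0.085 (SE 0.28, limma adjusted p = 0.993).

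The genes with a symbol whose level followed each gene most closely over the 6 arrays were found by Pearson correlation, given as a description, since all points share the scaling of their array. They were Trp53rka (0.95) and Mbp (0.94) for Ppara, Rps4l (0.84) and Taf1a (0.82) for Acaa2, Prdx2 (0.89) and Rps4l (0.79) for Pex11a, and Gpi1 (0.51) and H2-M2 (0.47) for Apoe, among 35 genes. In the ratio they were Gpi1 (0.83) and Rab5a (0.77) for Acaa2, Prdx2 (0.83) and Gamt (0.81) for Apoe, and Cep41 (0.77) and Uhrf1bp1l (0.69) for Pex11a, among 26 genes. The level of Apoe had the weakest match. These are the highest of 35 or 26 correlations over 6 arrays of both groups, so selection and any shared group difference can raise them.

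**Figure D4:**
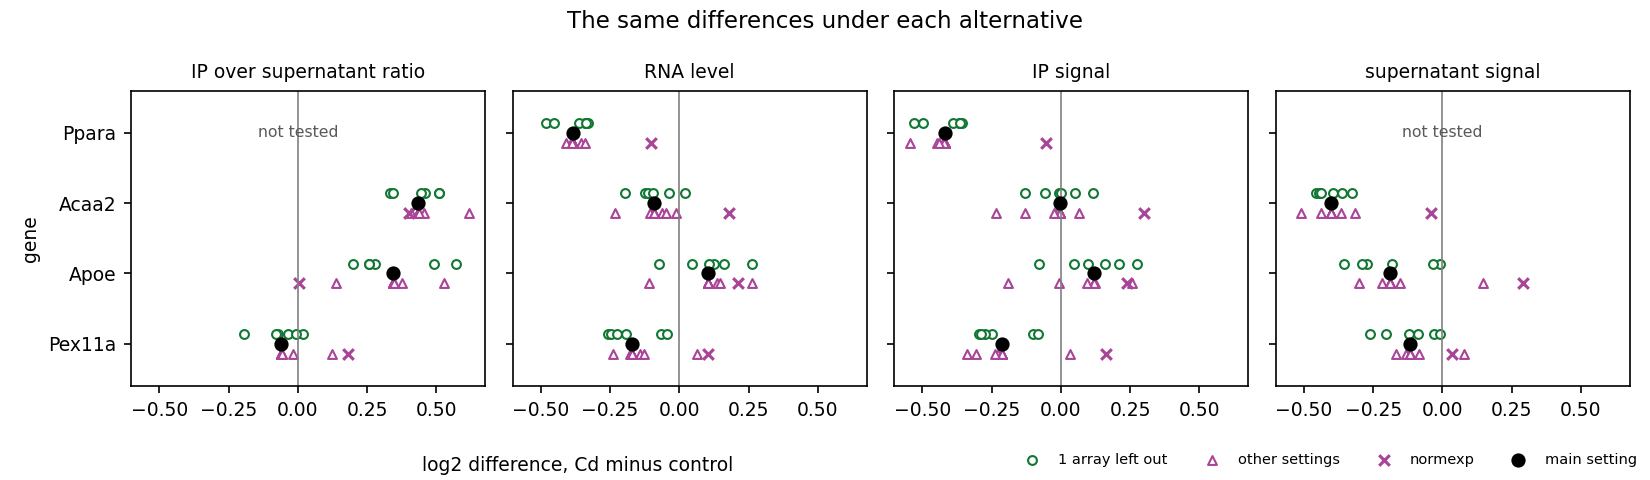
Log2 difference, Cd minus control, of each gene and measure in the main setting (black), with 1 array left out (circles), with normexp (cross) and in the other alternatives (triangles). The Acaa2 ratio stayed above 0 and the Acaa2 supernatant and both Ppara measures stayed below 0 in all 16 alternatives, while each of the other measures but the Apoe ratio crossed 0 in at least 1. The filter, replicate block and variance trend alternatives repeat the main difference by construction.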

How the data were processed

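The deposited scanner tables hold spot intensity from Agilent Feature Extraction 11.0.1.1, background-subtracted and dye-normalized, per the file headers and the submitters' processing notes. The deposited log10 ratio was used only as a check. The log2 values of the authors' deposited series table match the processed IP signal, in log2, shifted by 1 constant for each array whose meaning is unknown. It has no row for these 4 genes and served only the count of IP calls. Its column medians were -2.87, -2.00 and -2.16 in control and -2.11, -1.81 and -2.36 in Cd.

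Flagged spots were removed and log2 spots averaged per probe. A probe was well above background on an array if at least 50% of its spots were. Tests took probes so on at least 3 of 6 arrays in both channels (ratio), either (level) or the channel tested, with no missing value. The ratio was centred on the array median; other measures were scaled to the 75th percentile. Groups were compared with limma 3.58.1 in R 4.3.3, and the script was checked on simulated data. Alternatives were other background corrections, filters, scalings and fits, and arrays left out. Normexp, with an offset of 50, was run on median spot signals, which were then scaled by the linear dye factor of the file headers. Symbols came from RefSeq accessions of GRCm38.p6 (45 of 50 catalogue probes). The number of arrays limits the precision.

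The named genes were the 4 members, other list genes with a named probe, and the 2 most correlated genes per member. Members, lists and rules were chosen with earlier results of these data known. Figures used matplotlib 3.10.9 in Python 3.11.15.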

Additional observations from a re-analysis of the deposited data

How the results depend on the processing

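Of 224 values of the 14 gene differences under alternatives, 201 kept their direction, 23 reversed and 0 passed the threshold. Changing the filter, the replicate block or the variance trend alters a gene's error and adjusted p but not its difference. Those values therefore repeated the main ones and kept their direction by construction. With normexp (offset 50) the reversed values were 0.18 for the Pex11a ratio, 0.18 and 0.10 for the Acaa2 and Pex11a levels, 0.30 and 0.16 for their IP signals, and 0.29 and 0.036 for the Apoe and Pex11a supernatant signals. Spike-in scaling gave 0.12 for the Pex11a ratio and -0.0081 for the Apoe IP signal, and quantile normalization -0.11 and -0.19 for the Apoe level and IP signal. With control replicate 1 and Cd replicate 3 both left out, the Pex11a level was 0.062, the Acaa2 and Pex11a IP signals 0.065 and 0.031, and the Apoe and Pex11a supernatant signals 0.15 and 0.079. With single arrays left out, the Pex11a ratio ranged from -0.20 to 0.019, the Acaa2 level from -0.20 to 0.019, the Apoe level from -0.073 to 0.26, the Acaa2 IP signal from -0.13 to 0.12 and the Apoe IP signal from -0.080 to 0.27. The Acaa2 IP signal was 0.050 without control replicate 3, 0.00099 without Cd replicate 2 and 0.12 without Cd replicate 3. The cause was not tested. The normexp setting changed the background method, the spot signal and the dye correction together, and added the offset to both channels.

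Over all probes, the 1 ratio call higher in Cd became 0 with normexp, the filter on all 6 arrays, no filter, spike-in scaling, the replicate block and both of those arrays left out, and was 0 to 1 with single arrays left out. Supernatant calls, 0 in each direction, became 1 lower with the filter on all 6 arrays, a variance trend and both of those arrays left out, and were 0 to 1 lower with single arrays left out. With spike-in scaling they were 9 higher and 8 lower. None of the calls was among these genes. In the spike-in fit of the supernatant the SE was the same, 0.43, for Acaa2, Apoe and Pex11a. It therefore did not reflect the spread of each gene. The labels do not say whether arrays with the same replicate number share a litter, batch or day. Correlations between deviations for numbers 1, 2 and 3 were -0.067, -0.051 and -0.12 in the ratio and -0.41, 0.43 and 0.0038 in the level. In the IP signal they were -0.26, 0.41 and -0.12, and in the supernatant -0.39, 0.13 and 0.11. They were not over 0.1 for every number in any measure, but 3 arrays a group are too few to settle whether the numbers pair arrays. The replicate block gave 0 calls in each of the 4 measures. The median difference of all probes moved to 0.23 for the ratio with spike-in scaling, to -0.25, -0.31 and -0.28 for level, IP and supernatant with no filter, and to 0.29 in the deposited table. Slide and scan as a block could not be fitted, since each scan held 1 group, and the deposited table has no row for these genes. Signal over background limits Ppara in the supernatant.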
